A study of Mus musculus with 249 samples.

Results

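Cadherins and protocadherins were followed across the brains of an F2 mouse intercross. The members were the probes whose only gene symbol was Cdh with a digit, Pcdh with a letter or digit, Celsr1, Celsr2, Celsr3, Fat1 or Fat2. They were 60 of 11633 genes named by probes of 1 symbol, measured by 65 of the 23388 probes on the array, and all 65 had values on at least 90% of the arrays used. Cdh11 and Celsr3 had no probe under these names. The study measured brain RNA of F2 animals of both sexes from C57BL/6J and C3H/HeJ parents. Both strains were on ApoE null backgrounds, so every animal shared that background, and every animal ate a high fat "Western" diet from 8 to 24 weeks of age. Each animal was hybridised once, in Cy3, against a pool in Cy5 that held the same amount of RNA from every sample. The labels put the 249 arrays in 1 group and name 330 mice, and sex, genotype and batch are not given for single animals. The rule for the members leaves out the array of animal 144, so 248 animals were used.

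The members are glycoproteins of the cell surface that bind through extracellular cadherin repeats, mostly to the same protein on a neighbouring cell. Classical cadherins attach to catenins inside the cell and hold junctions and synapses together, and the type II cadherins among them mark groups of neurons and brain regions. The alpha, beta and gamma protocadherins lie in clusters on 1 chromosome, where neurons choose which isoforms to express and use them to tell their own branches from those of other cells. Celsr and Fat proteins are large cadherins that act in planar cell polarity and in the contacts of axons.

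Promoters were printed for 3 sets of members whose values are compared below, all from RefSeq on build GRCm38.p6, 5′ to 3′ on the gene's strand, from 250 bases before to 50 after the start. The first set holds Cdh6 (chr15:13173626-13173925, minus strand) and Cdh18 (chr15:23036213-23036512, plus strand), and the second holds Pcdh18 (chr3:49757267-49757566, minus strand) and Pcdh10 (chr3:45378148-45378447, plus strand). In these 4 windows capitals mark the letters CCAAT or ATTGG (the CCAAT box on either strand) and GGGCGG or CCGCCC (the GC box on either strand). The third set holds Fat2 (chr11:55312208-55312507, minus strand) and Cdh15 (chr8:122848124-122848423, plus strand), where capitals mark CANNTG, the E box, which reads the same on both strands.
Cdh6: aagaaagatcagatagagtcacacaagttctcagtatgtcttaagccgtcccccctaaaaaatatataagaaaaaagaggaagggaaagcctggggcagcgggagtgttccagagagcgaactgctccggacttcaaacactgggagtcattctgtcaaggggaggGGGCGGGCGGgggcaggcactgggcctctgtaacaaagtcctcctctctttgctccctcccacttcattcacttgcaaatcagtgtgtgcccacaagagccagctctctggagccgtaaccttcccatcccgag
Cdh18: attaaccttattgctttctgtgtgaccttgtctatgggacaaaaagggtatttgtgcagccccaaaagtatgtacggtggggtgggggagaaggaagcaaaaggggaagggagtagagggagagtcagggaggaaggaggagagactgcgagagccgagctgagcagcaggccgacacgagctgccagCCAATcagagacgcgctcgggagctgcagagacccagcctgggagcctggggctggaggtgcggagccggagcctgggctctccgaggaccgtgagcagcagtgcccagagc
Pcdh18: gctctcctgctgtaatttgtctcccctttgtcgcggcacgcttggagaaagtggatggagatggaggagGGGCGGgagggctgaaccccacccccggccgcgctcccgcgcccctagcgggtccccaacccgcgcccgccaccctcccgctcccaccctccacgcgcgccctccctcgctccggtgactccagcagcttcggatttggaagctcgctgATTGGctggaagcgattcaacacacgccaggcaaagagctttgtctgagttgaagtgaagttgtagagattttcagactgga
Pcdh10: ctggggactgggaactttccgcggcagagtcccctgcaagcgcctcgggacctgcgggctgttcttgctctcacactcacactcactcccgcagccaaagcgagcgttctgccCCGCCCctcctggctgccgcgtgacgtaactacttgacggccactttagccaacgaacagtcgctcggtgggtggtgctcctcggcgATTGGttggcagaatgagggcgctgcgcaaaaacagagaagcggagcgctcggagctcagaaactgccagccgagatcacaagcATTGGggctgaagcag
Fat2: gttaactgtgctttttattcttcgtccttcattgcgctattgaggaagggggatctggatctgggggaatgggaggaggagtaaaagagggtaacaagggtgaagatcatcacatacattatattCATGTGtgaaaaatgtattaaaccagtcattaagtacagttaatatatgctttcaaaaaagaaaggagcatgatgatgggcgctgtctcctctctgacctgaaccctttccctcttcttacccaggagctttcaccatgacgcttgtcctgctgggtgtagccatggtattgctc
Cdh15: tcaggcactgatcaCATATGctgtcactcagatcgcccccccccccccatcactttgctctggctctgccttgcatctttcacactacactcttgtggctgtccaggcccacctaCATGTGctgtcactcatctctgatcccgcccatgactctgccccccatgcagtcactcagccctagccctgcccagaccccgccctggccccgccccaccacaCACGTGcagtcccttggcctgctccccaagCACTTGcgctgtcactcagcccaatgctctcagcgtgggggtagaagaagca

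The CCAAT box matched 0 times in Cdh6, once in Cdh18, once in Pcdh18 and 2 times in Pcdh10, and the GC box matched 2, 0, 1 and 1 times in the same order of genes. The 2 matches in Cdh6 share 2 bases, and no other matches overlapped. The E box matched once in Fat2 and 4 times in Cdh15. Among 32851 RefSeq windows 37.4% held a CCAAT box, 35.7% a GC box and 72.3% an E box, so each motif is common and a match describes the letters only. RefSeq windows were found for 22 of the 60 member genes.

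Each value is the log10 of animal over pool: 0 is the level of the pool and a difference of 0.301 is a factor of 2. With 1 array per animal and no replicate array, the spread between animals holds both biology and measurement error. Array medians lay between -0.00627 and 0.0250. Within arrays, the SD across probes ran from 0.0585 through a median of 0.0764 to 0.258, and it was 0.392 for animal 144. Over 30628 pairs of arrays the lowest correlation was -0.34, with 6 pairs under -0.3. The direction was kept because the labels give 1 dye order and animals can lie on opposite sides of a pool of themselves. The pool means that these values show differences between animals and cannot show whether a brain transcript is present.

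The members varied somewhat more between animals than the array as a whole. The median SD was 0.0687 over the 65 members and 0.0560 over the 23053 probes tested, and 11 members (16.9%) had an SD of at least 0.1, against 9.26% of all probes. The 65 hold 7 alpha protocadherin probes that gave nearly 1 measurement, described below. With these counted once, the median SD over 59 measurements was 0.0600, close to the 0.0560 of all probes, and the same 11 stood at 18.6%. The mean lay within 0.05 of the pool for 63 members, and 97.3% of all probes did the same. The exceptions were probe b of Cdh1, E-cadherin of epithelia, with a mean of -0.19, and Cdh16, a cadherin known from kidney, with a mean of -0.09. Cdh1 probe b ran from -0.48 through a median of -0.19 to 0.02, which puts its mean at 0.641 of the pool. Every array has the same dye order, so a dye effect on these 2 means was not tested. Animal 144, left out here, had 1.37 for Cdh1 probe b and 1.08 for Cdh16.

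Among the cadherins, Cdh18, a type II cadherin of neurons, had the largest SD, 0.21 ± 0.0094 (standard error of the SD, n = 246). Its values ran from -2, the lower limit of the scale, through a median of 0.02 to 0.48. The value at the limit came from 1 animal, and the spread estimated from the median absolute deviation was 0.144, below the 0.163 of Cdh5. With values at the limits left out, the largest SD of any member was 0.185, that of Cdh5. The standard errors of these SDs are those for normal values. Cdh5, VE-cadherin of endothelial junctions, followed with an SD of 0.19 ± 0.0083 (standard error, n = 248), and its values ran from -0.51 through 0.02 to 0.42. Between the 5th and 95th percentiles lay a factor of 4.17. Cdh15, M-cadherin, known from muscle and from granule cells of the cerebellum, spread with an SD of 0.13, from -0.62 through 0.02 to 0.29. Cdh17, the liver and intestine cadherin, had the smallest SD of this class, 0.032.

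In the beta cluster the SDs ran from 0.035 for Pcdhb12 to 0.15 for Pcdhb2, and Pcdhb3 was second with 0.12. Pcdhb2 ran from -0.35 through 0.02 to 0.38, a 3.22-fold range between the 5th and 95th percentiles. Pcdhb3 ran from -0.48 through -0.00275 to 0.29, a 2.44-fold range. The only gamma member, Pcdhga1, had an SD of 0.039. Among protocadherins outside the clusters, Pcdh10 (SD 0.12), probe b of Pcdh9 (0.11), Pcdh17 (0.11) and Pcdh8 (0.10) varied most. Pcdh15, which forms hair cell tip links with Cdh23, varied least of all 65, with an SD of 0.027 and values from -0.05 to 0.16. Of the Celsr and Fat members, Fat2 (SD 0.11) and Celsr1 (0.0957) varied most and Celsr2 least (0.036).

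**Figure D1:**
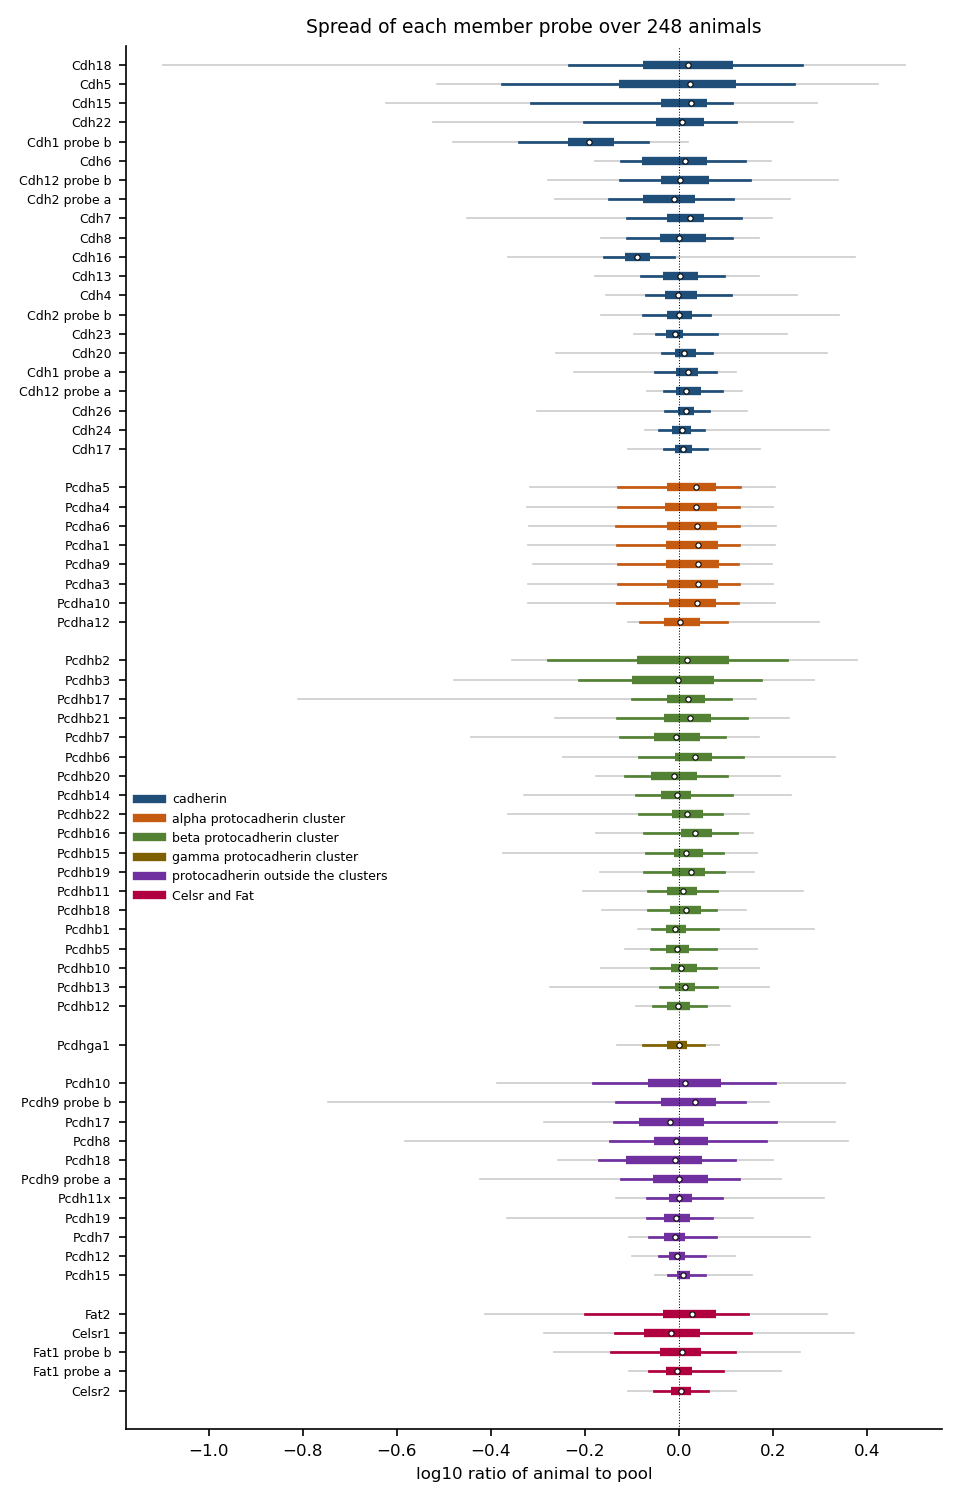
Log10 ratio of animal to pool (horizontal axis) for each of the 65 member probes, grouped by class and ordered by SD, over 248 animals. White points are medians, thick bars span the middle quartiles, thin coloured bars the 5th to 95th percentiles and grey lines the full range, without the 1 value of Cdh18 at -2; Cdh1 probe b and Cdh16 lie left of 0 and most other medians lie close to it.

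In 5 genes with 2 probes each, the probes of 1 gene often varied differently. The r between them over animals was 0.497 for Cdh2 and 0.391 for Cdh12. It was 0.062 for Pcdh9 (adjusted permutation p = 0.379), 0.0402 for Cdh1 (0.593) and -0.156 for Fat1 (0.0203). Probes are therefore named apart, as probe a and probe b, and the transcript that each probe reads was not analysed here. For correlations between animals, r and Spearman's rho were tested with 100000 two-sided permutations, and 183 relations were computed. Where a single relation is given with no p, the permutation p of r was 1e-05, the smallest that number allows, and its Benjamini-Hochberg adjusted value over the 183 was 1.78e-05. A range of r over several pairs stands for pairs called by limma. Leaving out the 2 animals farthest in the second measure moved r by more than 0.1 in 2 of 94 such relations over all animals, Cdh6 with Cdh18 and Cdh24 with Pcdhb17, and changed the sign of 0.

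The shape of the values over animals was described next. An autosomal locus in an F2 gives 3 genotypes in shares of 25%, 50% and 25%, and a probe was called discrete when 3 normal components in these shares beat 1 normal by more than 10 in BIC. The outer means also had to lie at least 2 within-component SD apart, with an excess kurtosis under 0. The rule called 4 of the 65 members (6.15%), against a background of 1.26% of all probes tested. They were Cdh6, Pcdh18, Pcdhb2 and Cdh5.

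Cdh6, a type II cadherin known from kidney and from boundaries between brain regions, had the clearest components. It ran from -0.18 through a median of 0.01 to 0.20. Its component means were -0.11, 0.02 and 0.12, with 73, 114 and 61 animals, and the outer means lay 9.29 within-component SD apart. The high component was 1.67-fold above the low one, and the gain in BIC was 111. Pcdh18, a delta protocadherin, ran from -0.26 through -0.009 to 0.20, with component means of -0.14, -0.001 and 0.10. Its components held 78, 111 and 59 animals, lay 6.78 SD apart and differed by 1.74-fold (gain 36.8).

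Pcdhb2 had component means of -0.22, 0.02 and 0.18, with 59, 134 and 55 animals. The outer means lay 5.69 SD and 2.46-fold apart, with a gain of 19.6. Cdh5 differed from these 3 genes, since its upper components had nearly the same mean (0.070 and 0.072) and only a low group of 63 animals, with a mean of -0.26, stood apart from the other 185. Its gain of 13.6 was the nearest to the limit from above. With free weights Cdh6 and Pcdh18 were called, against a background of 1.08%, and Cdh5 (gain 2.82) and Pcdhb2 (9.80) were not. With arrays scaled to 1 spread 10 members were called, against a background of 2.24%. They were Cdh6, Pcdh18, Pcdhb2 and 7 alpha probes that gave nearly 1 measurement, and Cdh5 was not called (3.24). With the limit at 20 only Cdh6 and Pcdh18 were called, against a background of 1.03%. The next members below the limit were probe a of Fat1 with 7.78 and Fat2 with 7.44. Genotypes are not given for the animals, so no component was matched to a parental strain.

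With animal 144 included, Cdh6 and Pcdhb2 were called, against a background of 0.928%, and Pcdh18 (gain -10.8) and Cdh5 (8.11) were not. A further 10 members had a gain over 10 but an excess kurtosis above 0, and without that condition 14 members were called, against a background of 6.67%. They were Cdh15 (73.3), Cdh23 (39.8), Pcdhb1 (14.5) and 7 alpha protocadherin probes (23.5 to 27.8).

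**Figure D2:**
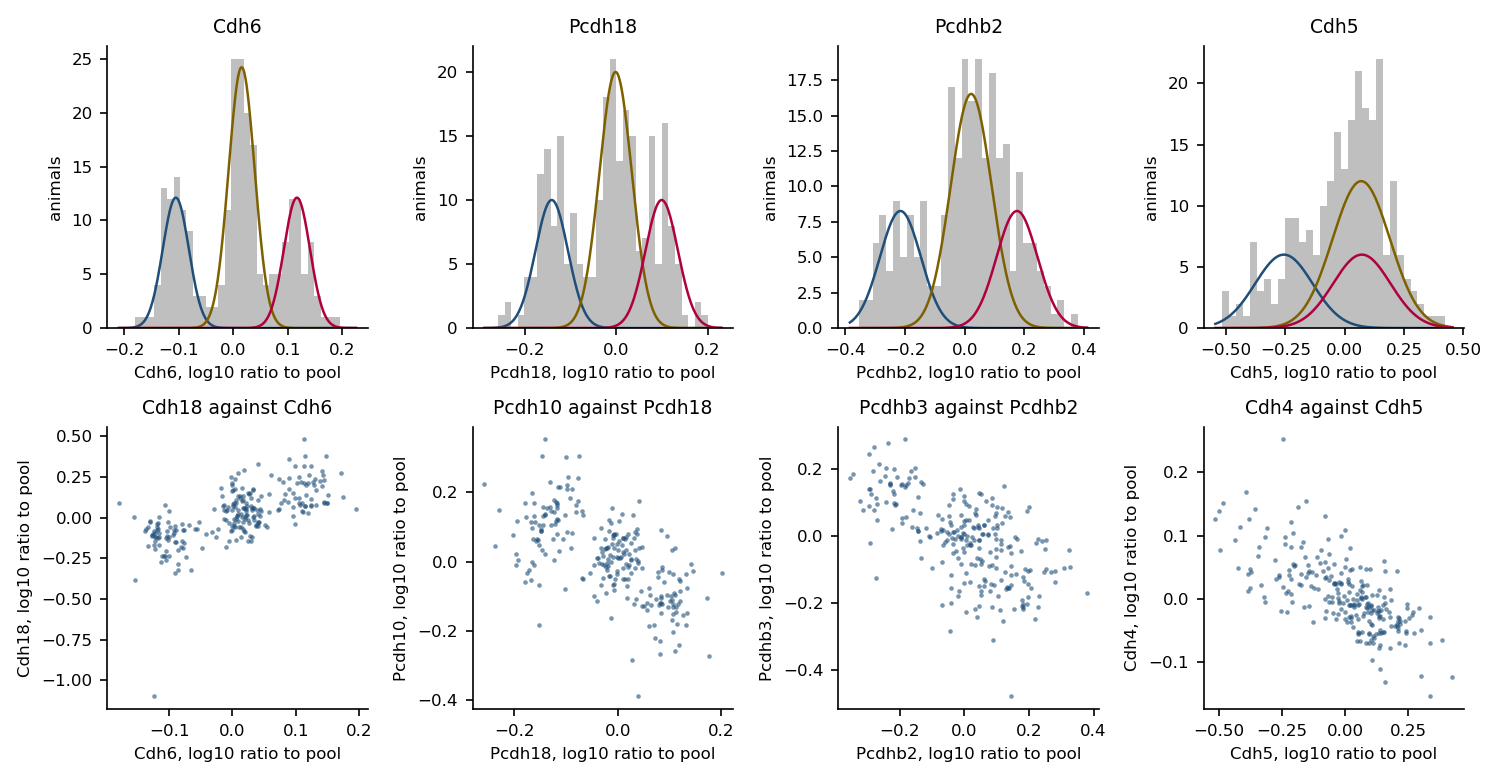
Top row, numbers of animals by log10 ratio to the pool for Cdh6, Pcdh18, Pcdhb2 and Cdh5, with the 3 fitted components drawn as curves. Bottom row, each animal as a point in a member of the same chromosome, or Cdh4 for Cdh5, against the same gene; the 1 value of Cdh18 at -2 is not drawn, Cdh18 is high where Cdh6 is high, and Pcdh10, Pcdhb3 and Cdh4 are low where Pcdh18, Pcdhb2 and Cdh5 are high.

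The discrete members other than Cdh5 were most alike in their values to genes of their own chromosome. For each member the 10 named probes with the largest absolute r over animals were listed, and a gene with several probes can stand there more than once. All 10 lay on the member's own chromosome for Pcdh10 (9 genes) and Pcdh18 (10 genes), 9 did for Cdh6 (8 genes) and Pcdhb2 (9 genes) and 8 for Pcdhb3 (8 genes), while 29 members had 0 on their own chromosome. The same chromosome does not mean close by: for Cdh6 they lay 34 to 863 places away in gene order, which came from assembly GRCm38.p6. These lists were made for members only, so the counts on the own chromosome have no share over all probes beside them. The r over all animals includes the steps between components. Components are cut from a member's own values, which narrows its range, so r within a component tends to be smaller by construction and is given as a description.

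On chromosome 15, Cdh6, Cdh12 and Cdh18, all type II cadherins, varied together. Cdh6 and Cdh18, with 39 annotated genes between them, had r = 0.56 and rho = 0.70 (n = 246). Without the 2 animals farthest in Cdh18, r was 0.70. Within the low, middle and high components of Cdh6, r was -0.14, 0.09 and 0.08, with permutation p of 0.25, 0.32 and 0.52. Cdh12, with 33 genes between it and Cdh6, had r = 0.48 for probe a and 0.41 for probe b (rho 0.47 and 0.42). Probe a of Cdh12 had r of -0.09, 0.22 and 0.38 within the low, middle and high components of Cdh6, with permutation p of 0.472, 0.0198 and 0.00242. Probe b had r of 0.28, 0.39 and 0.27 there, with permutation p of 0.018, 2e-05 and 0.034. Cdh18 and Cdh12 were less alike, with r = 0.26 for probe a and 0.29 for probe b (permutation p = 4e-05 each). The gene most like Cdh6 was Cthrc1, a secreted collagen triple helix protein, with r = 0.68.

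On chromosome 3, Pcdh18 and Pcdh10, delta protocadherins with 27 annotated genes between them, varied in opposite directions. The r was -0.63 and rho -0.64 (n = 248), and r was -0.63 without the 2 animals farthest in Pcdh10. In the low, middle and high components of Pcdh18 r was 0.28, -0.28 and 0.02, with permutation p of 0.014, 0.0029 and 0.88. Pcdh10 itself was not discrete, with values from -0.39 through 0.01 to 0.35. Pcdh18 was most like 6430590A07Rik (r = 0.83), Gpr160 (0.75) and Gnb4 (-0.73), and Pcdh10 was most like Gnb4 (0.77), Cetn4 (-0.77) and 6430590A07Rik (-0.65), so each gene took the opposite sign in the other.

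On chromosome 18, the neighbours Pcdhb2 and Pcdhb3, with 0 annotated genes between them, also varied in opposite directions, with r = -0.62 and rho = -0.61 (n = 248). Within the low, middle and high components of Pcdhb2 r was -0.20, -0.10 and -0.02, with permutation p of 0.12, 0.27 and 0.91. Pcdhb20 was low where Pcdhb2 was high (r = -0.58) and high where Pcdhb3 was high (0.40). Pcdha12 and Pcdhb2 had r = 0.51, and r was 0.44 (permutation p = 0.00034), 0.46 (p = 1e-05) and 0.10 (p = 0.45) inside the low, middle and high components. Hbegf, a heparin-binding growth factor gene, and Hars, a histidyl-tRNA synthetase gene, had r of 0.81 and 0.79 with Pcdhb2 and -0.76 and -0.82 with Pcdhb3.

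These relations within a chromosome were about as large or larger when 5 principal components of all probes were taken out of each value. The r was then 0.57 for Cdh6 and Cdh18, -0.76 for Pcdh18 and Pcdh10, -0.64 for Pcdhb2 and Pcdhb3, and 0.74 for Pcdhb3 and Pcdhb20. This setting was added after the data were seen. The pairs in these paragraphs were chosen after their values were seen.

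In the alpha cluster, the probes of Pcdha1, Pcdha3, Pcdha4, Pcdha5, Pcdha6, Pcdha9 and Pcdha10 gave nearly 1 measurement. Their r with each other ran from 0.992 to 0.998. The SD between the 7 probes of 1 animal had a median of 0.0035, against a median SD over animals of 0.083. As background, alpha transcripts join a first exon of their own to exons that all of them share. The mean of the 7 ran from -0.32 through a median of 0.04 to 0.20, a 1.81-fold range from the 5th to the 95th percentile. Pcdha12 varied apart from them and in the opposite direction, with r from -0.43 to -0.42, and ran from -0.11 through 0.003 to 0.30. Outside the cluster, Pcdh17, a delta protocadherin on chromosome 14, was high where these probes were high, with r = 0.640 and rho = 0.652 against Pcdha1, and r = 0.499 without 5 principal components.

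Over all members, 1087 of 2075 pairs of different genes were called (52.4%), where a pair had to pass limma's adjusted p under 0.05 in both directions of the fit. Counted by single fits, 2231 of 4150 fits between members of different genes were called (53.8%), against a background of 51.2% for the same fits with any probe, so the share among members lay close to that over the whole array. Of the called pairs 587 had a positive and 500 a negative slope. Without the 21 pairs among the 7 alpha probes, 315 of 504 pairs on 1 chromosome (62.5%) and 751 of 1550 on different chromosomes (48.5%) were called. Pairs of an alpha probe with another member stayed in, so nearly 1 measurement counts 7 times in both shares. The difference between the shares was not tested. Of the 171 pairs of beta protocadherins 118 were called (69.0%), 79 positive and 39 negative. No share over all probes was computed for the rule of both directions, so these shares of pairs have no background. The strongest positive beta pairs named here were Pcdhb17 with Pcdhb22 (r = 0.69) and Pcdhb10 with Pcdhb15 (0.63). Their r without 5 principal components was 0.58 and 0.48.

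A group of 6 probes on 5 chromosomes moved together, namely Pcdhb1, Pcdhb5, Pcdh7, Pcdh11x, Cdh23 and probe a of Fat1. Their 15 pairs had r from 0.61 to 0.81, and Pcdhb1 with Pcdh11x was the highest. After 5 principal components the 15 pairs had r from 0.24 to 0.59. In other strong pairs r moved further. Pcdhb17 and probe b of Pcdh9 had r = 0.77, and -0.03 without the components. Cdh5 and Cdh4, R-cadherin, had r = -0.70, the most negative of all pairs, and -0.19 without them. Pairs that changed little were Celsr1 with Pcdh8 (0.63, and 0.65 without the components) and Celsr1 with Celsr2 (0.515, and 0.505 without them).

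**Figure D3:**
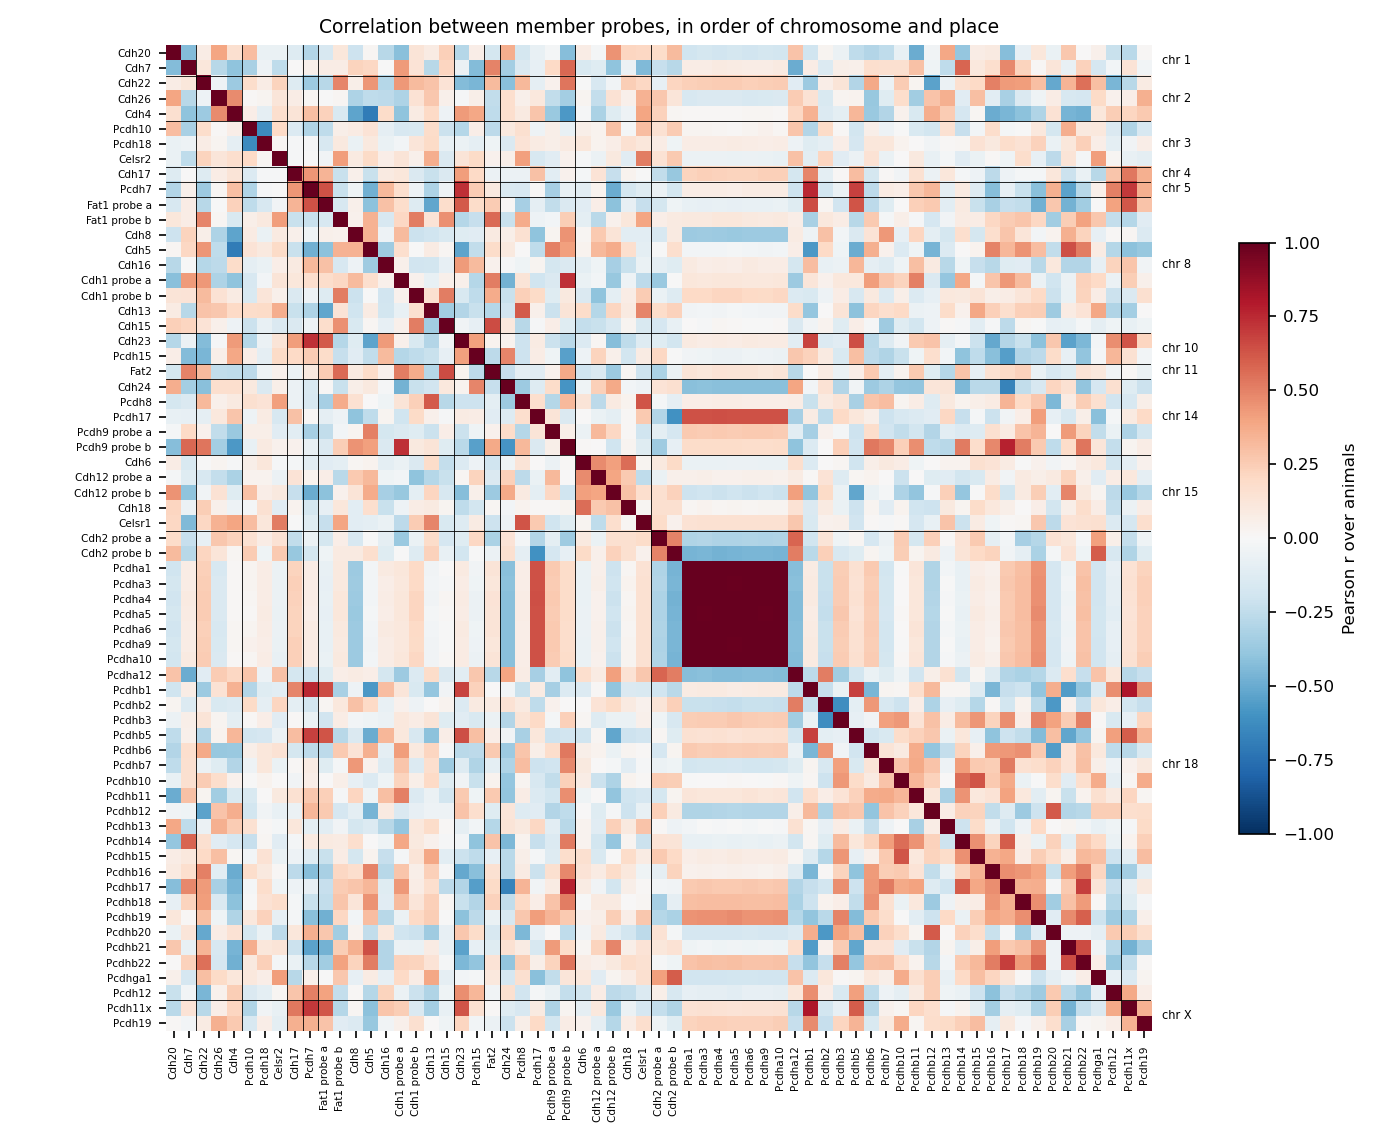
Pearson r over animals between the 65 member probes, ordered by chromosome and gene order, with lines between chromosomes and colour from -1 (blue) to 1 (red). The dark block on chromosome 18 is the 7 alpha probes, the block on chromosome 15 holds Cdh6, Cdh12 and Cdh18, and Pcdh10 with Pcdh18 and Pcdhb2 with Pcdhb3 stand out in blue beside the diagonal.

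Cdh5 was most like genes on other chromosomes. Its r was 0.99 with Galnt3 and with Rbm18 on chromosome 2 and 0.99 with Zfp39 on chromosome 11, and 0.98, 0.97 and 0.98 without 5 principal components. None of these 3 is an endothelial gene in the list used here. Probe b of Pcdh9 was most like Sec23a (0.96), a coat protein gene of vesicles, and r was 0.68 without the components. Pcdh8, known from other work as a protocadherin induced by synaptic activity, was most like Slit3 (0.86), Nedd4l (0.76) and Nr2f2 (0.76).

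To set the members against the composition of each sample, 15 scores were formed from marker genes of brain regions, cell types and neighbouring tissues, as the mean z of the measured genes of each list. No list held a member. A fold per SD is the change in a member per SD of a score, taken over all animals of the fit. In bulk tissue, fewer cells of a type and less RNA per cell cannot be told apart. The mean pairwise r among the markers of a list ran from 0.0157 for interneurons and 0.0734 for astrocytes to 0.594 for cerebellum and 0.614 for pituitary, so the lists differ in how far their genes vary together. Scores that fell into 2 components were fitted with the component as a factor, so their slopes are within components. A component under 6 animals was left out (2 animals for striatum and 3 for astrocytes). Where 2 components stayed in the fit, the SD also holds the gap between them, so slopes of different scores are not on 1 scale. Over all scores 353 of 975 member and score pairs were called by limma (36.2%), against a background of 34.1% of all probe and score pairs. With 5 principal components as covariates, 211 pairs (21.6%) were called against a background of 18.2%. The share of members was above that of all probes for 11 of the 15 scores, and these differences between shares were not tested. In each share the 7 alike alpha probes, each called with 1 score, count as 7 members though they gave nearly 1 measurement.

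The members differed in how many scores they followed. Cdh4, Cdh7, Celsr1, Pcdhga1 and probe a of Pcdh9 were called with 10 of the 15, the most of any member. Cdh18, Pcdh18, Pcdhb3 and the 7 alike alpha probes were called with 1 score, Pcdhb2 with 2 and Cdh6 with 4. Pcdh10, whose 10 most alike probes lay on its own chromosome, was called with 7, and Pcdhb20 with 5.

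**Figure D4:**
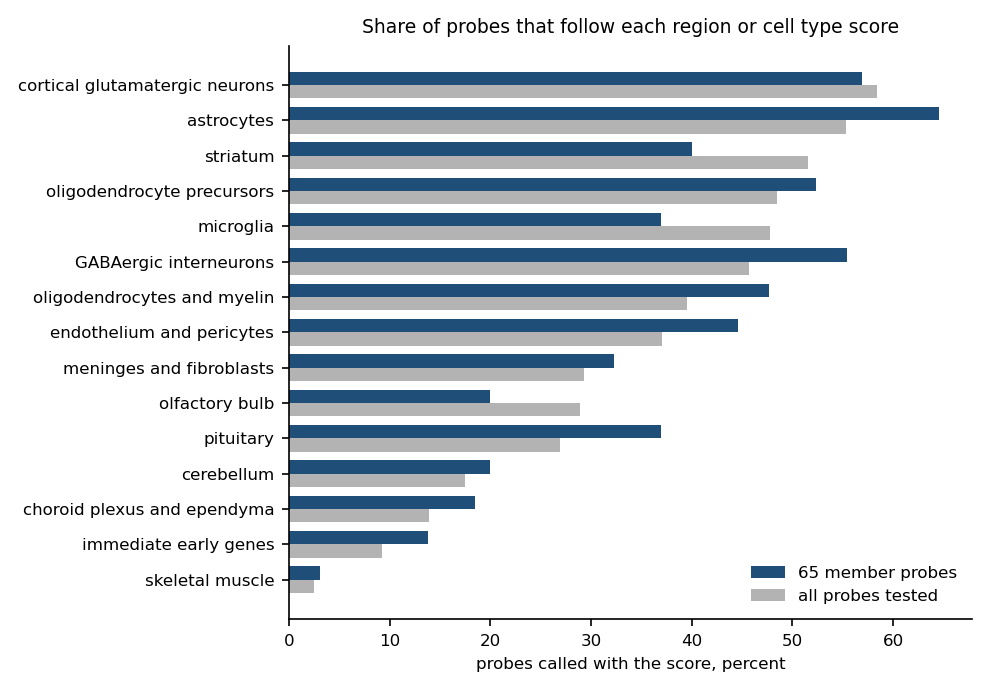
Percent of probes called with each of 15 scores (limma, adjusted p under 0.05), for the 65 members (dark bars) and for all probes tested (grey bars). The bars of members run from 3.08% for skeletal muscle to 64.6% for astrocytes and follow those of all probes.

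Fat2 with the cerebellum score had the smallest adjusted p of all member and score pairs. This score used 9 of 12 listed genes with a mean pairwise r of 0.59, among them the granule cell genes Gabra6 (values from -1.93 to 0.51) and Cbln1 (-0.80 to 0.30). The score had a lower component of 18 animals and an upper one of 230. Of the 65 members 13 were called (20%), 11 of them higher with the score, against a background of 17.5%. Fat2, a large cadherin known from the parallel fibres of granule cells, was 1.26-fold higher per SD of the score (slope 0.10 ± 0.0079, standard error, adjusted p = 1.41e-25). Within the upper component Fat2 ran from -0.26 through 0.03 to 0.31 and had r = 0.63 and rho = 0.57 with the score. In the lower component it ran from -0.41 through -0.22 to -0.09 with r = 0.61 (n = 18, permutation p = 0.00736), and r = 0.499 without the 2 animals farthest in the score.

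Cdh15 was 1.23-fold higher per SD of the cerebellum score (slope 0.09 ± 0.0074, adjusted p = 1.06e-23). It ran from -0.31 through 0.03 to 0.29 in the upper component, with r = 0.62, and from -0.62 through -0.35 to -0.17 in the lower one, with r = 0.55 (n = 17, permutation p = 0.022), and r = 0.324 without 2 animals. Probe b of Fat1 was 1.17-fold higher per SD (slope 0.07 ± 0.0080, adjusted p = 1.34e-12), with r = 0.48 in the upper component and 0.41 in the lower (n = 18, permutation p = 0.088). Probe a of Fat1 was not called. Fat2 and Cdh15 had r = 0.38 with each other within the upper component and 0.27 within the lower one (n = 17, permutation p = 0.28). All 3 slopes were kept with 5 principal components, at 0.10, 0.09 and 0.06. The genes most like Fat2 were Chn2 (0.83), En2 (0.80) and Ptprr (0.79), and those most like Cdh15 were Il16 (0.90), Cbln1 (0.88) and Crtam (0.87). En2, a homeobox gene of the cerebellum, was in no list.

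The meninges and fibroblast score, from 10 of 11 listed collagen and matrix genes with a mean pairwise r of 0.20, was followed by 21 members (32.3%), against a background of 29.3%. Probe b of Cdh1 had the largest slope, 0.05 ± 0.0042 (1.13-fold per SD, adjusted p = 1.10e-24), with r = 0.62 and rho = 0.56. The r was 0.64 among the later and 0.61 among the earlier animals, and the slope was 0.05 with 5 principal components. Probe a of Cdh1 was unlike it, with r = 0.10 (permutation p = 0.13). Probe b of Cdh1 also had r = 0.51 with Cdh15 and with probe b of Fat1. Cdh12 probe a was lower with the score (slope -0.01, adjusted p = 1.64e-07), and this was not kept with 5 principal components (adjusted p = 0.148).

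**Figure D5:**
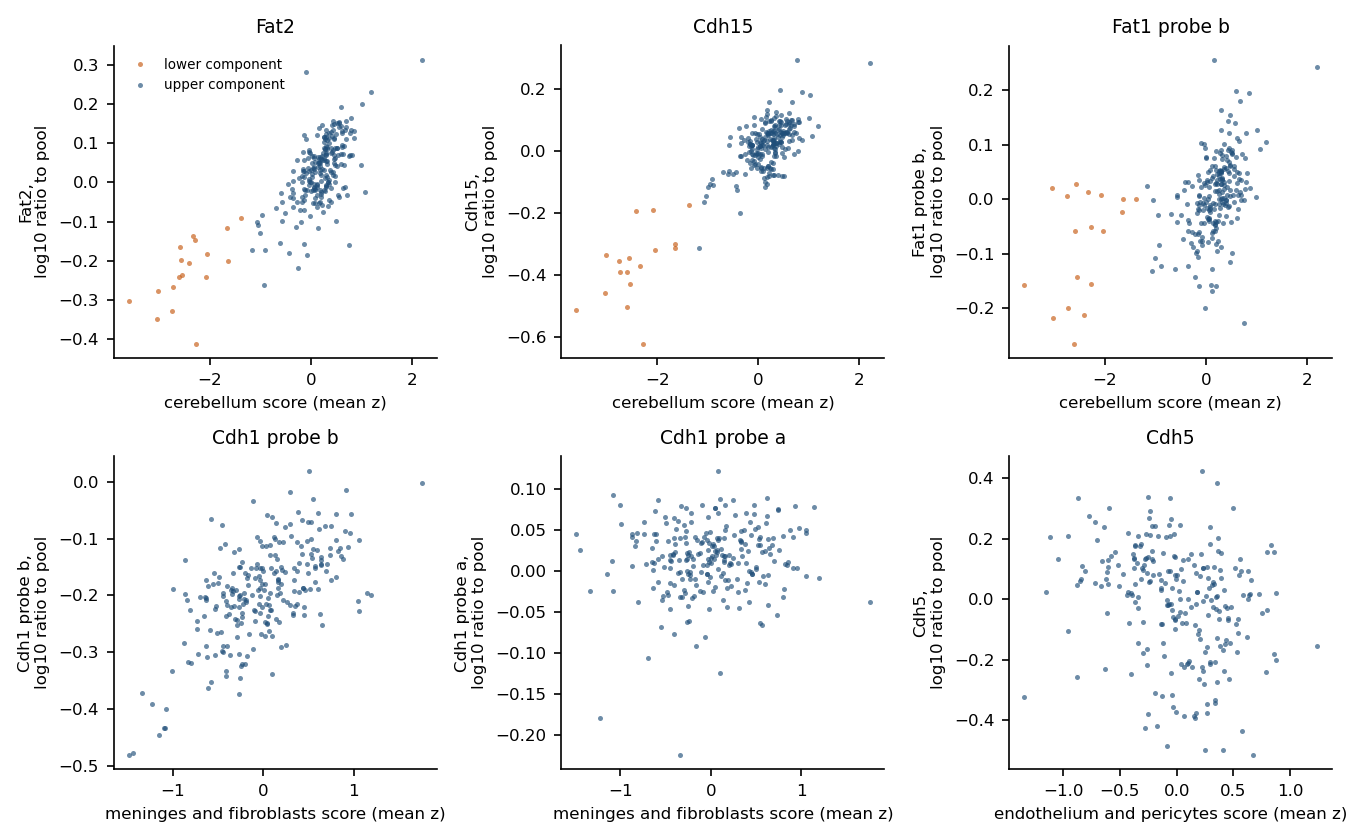
Each point is 1 animal; the vertical axis is the log10 ratio of a member to the pool and the horizontal axis a score as mean z. Fat2, Cdh15 and Fat1 probe b are set against the cerebellum score with its lower (orange) and upper (blue) components, Cdh1 probe b and Cdh1 probe a against the meninges score and Cdh5 against the endothelium score; Fat2, Cdh15 and Cdh1 probe b are higher where the score is higher, and Cdh1 probe a shows no such slope.

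Among scores of the forebrain, the striatum score was followed by 26 members (40%), below the background of 51.5%. Cdh13, T-cadherin, which is held in the membrane by a lipid anchor, was higher with it (slope 0.03 ± 0.0030, adjusted p = 1.01e-21, r = 0.58). The r of Cdh13 was 0.35 after 5 principal components were taken out. Cdh15 and Fat2 were lower with the striatum score, with slopes of -0.06 and -0.05. Their r was -0.46 each, but rho was -0.21 and -0.23 (permutation p = 0.00107 and 0.00022). The r was -0.27 and -0.23 in later animals and -0.55 and -0.58 in earlier ones. After 5 principal components were taken out it was -0.58 and -0.56. The cerebellum component was not a factor in this fit. The score of cortical glutamatergic neurons was followed by 37 members (56.9%), against a background of 58.4%. Its genes had a mean pairwise r of 0.106. With the mean of the other listed genes, Tbr1 and Rtn4r had r of 0.65 and 0.62. Neurod6, Neurod2 and Camk2a had -0.055, -0.000329 and 0.018. Cdh22 (slope 0.06, r = 0.58), Pcdhga1 (0.02, r = 0.58) and Celsr1 (0.05, r = 0.51) were higher with the cortical score. Celsr1 had a slope of 0.06 with 5 principal components (adjusted p = 1.13e-11), Cdh22 one of 0.02 (0.000627, r = 0.25) and Pcdhga1 was not called (slope 0.007, adjusted p = 0.0577, r = 0.15). The interneuron score was followed by 36 members (55.4%), against a background of 45.7%. Its genes did not vary as 1 set. Gad1, which makes GABA, had r = -0.34 with the mean of the other listed genes, and the subtype genes Pvalb, Sst and Lhx6 had -0.20, -0.19 and -0.15, while Dlx2 and Npy had 0.64 and 0.42. Cdh4 (slope 0.03, r = 0.49) and probe a of Cdh2, N-cadherin (0.04, r = 0.43), were higher with the interneuron score. After 5 principal components were taken out, r was 0.38 and 0.23.

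The olfactory bulb score was followed by 13 members (20%), against a background of 28.9%, and Cdh20, probe b of Fat1 and Cdh4 had the smallest adjusted p, with slopes of 0.01 to 0.02. The pituitary score had components of 197 and 51 animals and was followed by 24 members (36.9%), against a background of 26.9%. Cdh22, a cadherin first described in pituitary and brain, was lower with it, with a slope of -0.07 ± 0.015 (adjusted p = 0.000272). Its r was -0.35 in the component of 197 and -0.05 in that of 51 (permutation p = 0.72). Cdh5 was lower too, with a slope of -0.12 ± 0.027 (adjusted p = 0.000551). Its r was -0.33 in the component of 197 and -0.07 in that of 51 (permutation p = 0.64). With 5 principal components limma called 0 members with the pituitary score. Cdh22 then had an adjusted p of 0.364 and Cdh5 one of 0.348 with a slope of 0.0364, and on ranks, without the components, Cdh22 had 0.335.

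Among glial scores, that of astrocytes was followed by 42 members (64.6%), against a background of 55.3%. Celsr1, a receptor of planar cell polarity, was lower with it (slope -0.05 ± 0.0054, adjusted p = 2.34e-14, r = -0.49), and the slope was -0.05 with 5 principal components. The astrocyte genes did not all vary together. With the mean of the other listed genes, Aqp4 and Gjb6 had r of 0.47 and 0.42, and Slc1a2 and S100b had -0.21 and -0.05. The score of oligodendrocyte precursors was followed by 34 members (52.3%), against a background of 48.5%. Celsr2 was higher with it (slope 0.02, adjusted p = 7.91e-17, r = 0.53), and r was 0.50 after 5 principal components were taken out. In the precursor list, Olig2 and Olig1 had r of 0.50 and 0.47 with the mean of the other genes, and Gpr17 and Matn4 had 0.0045 and -0.015. The oligodendrocyte and myelin score was followed by 31 members (47.7%), against a background of 39.6%. Pcdhb10 was higher with it (slope 0.02, r = 0.42) and Pcdh10 lower (slope -0.04, r = -0.31). After 5 principal components were taken out, r was 0.22 and -0.29. In the myelin list, Cnp and Cldn11 had r of 0.63 and 0.57 with the mean of the other genes, and Ugt8a and Aspa had -0.014 and -0.031. The microglia score was followed by 24 members (36.9%), against a background of 47.8%. Cdh7 was lower with it (slope -0.04, adjusted p = 3.01e-15, r = -0.50), and r was -0.24 after 5 principal components were taken out.

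Among vascular and barrier scores, that of endothelium and pericytes used 13 of 14 listed genes, with a mean pairwise r of 0.124. It was followed by 29 members (44.6%), against a background of 37.1%. Its genes did not all vary together. With the mean of the other listed genes, Pdgfrb and Flt1 had r of 0.65 and 0.59, and Slco1a4 and Abcb1a had -0.14 and -0.09. Cdh5 is known as a marker of this cell type, but its probe was lower with the score (slope -0.0458 ± 0.011, adjusted p = 0.000435). The r was -0.25 (permutation p = 0.00016), and with 5 principal components the probe was not called (adjusted p = 0.305). This probe had r of 0.99 with Galnt3, Zfp39 and Rbm18, and whether it reads the Cdh5 transcript was not tested. Pcdh12, an endothelial protocadherin, was not called (slope -0.002, adjusted p = 0.565). Celsr1 (slope 0.05, r = 0.48) and probe b of Fat1 (0.03, r = 0.42) were higher with the endothelium score. After 5 principal components were taken out, r was 0.455 and 0.459. The choroid plexus and ependyma score was followed by 12 members (18.5%), against a background of 13.9%, with Cdh5 lower (slope -0.05, adjusted p = 0.000163, r = -0.29 with permutation p = 2e-05). Only 5 members were called with 5 principal components, against 8.92% of all probes, and Cdh5 was not (slope -0.01, adjusted p = 0.271, r = -0.12). Celsr2, which works in ependymal cilia, was not called with it (adjusted p = 0.225).

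The skeletal muscle score had an upper component of 6 animals and was followed by 2 members, Cdh16 and Pcdhb6 (3.08%), against a background of 2.49%. Cdh15, the cadherin of muscle cells, was not called with it (slope -0.02, adjusted p = 0.403). The immediate early gene score was followed by 9 members (13.8%), against a background of 9.3%. Both probes of Cdh2 were higher with it (slopes of 0.02 and 0.01, adjusted p = 0.00411 and 0.00547). Pcdh8 was not called (slope 0.009, adjusted p = 0.378). With animal 144 included, neither probe was called (adjusted p = 0.0549 and 0.145), and Cdh16 and Pcdhb6 were not called with the muscle score (0.202 and 0.0807). With 5 principal components limma called 0 members with either score.

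Pathway partners of the members were listed too, such as catenins, nectins, polarity genes and regulators of the protocadherin clusters. Of 65 listed genes 46 were measured, by 51 probes. The gene named for a score is that of smallest adjusted p, given with its slope. With the cerebellum score 13 of these probes were called (25.5%), 11 higher and 2 lower, against a background of 17.5%, and Dnmt3b, a DNA methyltransferase, came first (0.04, adjusted p = 5.84e-11). With the interneuron score 26 were called (51.0%), against 45.7%, with Cdhr1, a cadherin-related photoreceptor gene, first (0.04, adjusted p = 3.39e-40). Cdhr1 was also first with the olfactory bulb score (0.03, adjusted p = 1.75e-25). With the cortical score 31 were called (60.8%), 22 higher and 9 lower, against 58.4%, with Nectin1, an adhesion partner at cadherin junctions, first (0.04, adjusted p = 1.26e-30). With the meninges score 18 were called (35.3%), against 29.3%, with Nectin2 first (0.03, adjusted p = 6.93e-08). The share also lay above the background for endothelium (49.0% against 37.1%), oligodendrocyte precursors (56.9% against 48.5%), myelin (45.1% against 39.6%), olfactory bulb (33.3% against 28.9%), striatum (52.9% against 51.5%), choroid plexus (15.7% against 13.9%) and immediate early genes (15.7% against 9.3%). It lay below for astrocytes (45.1% against 55.3%), pituitary (21.6% against 26.9%) and microglia (47.1% against 47.8%), and 0 probes were called with skeletal muscle, against 2.49%. These differences between shares were not tested.

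The animal number is the only label that differs between arrays. The 124 animals with later numbers were set against the 124 with earlier ones, and no label used here says what else differed between them. The fit called 11 members (16.9%), 3 higher and 8 lower in the later animals, against a background of 14.9% of all probes. Celsr1 ran from -0.29 through -0.04 to 0.30 in later animals and from -0.20 through 0.002 to 0.37 in earlier ones. It was lower in the later animals by a factor of 0.884 (difference -0.05 ± 0.012, standard error, limma adjusted p = 0.000435). Probe b of Cdh2 was lower by a factor of 0.941 and probe a by 0.915 (adjusted p = 0.000598 and 0.00323), and Pcdhga1 and Pcdhb10 by 0.960 and 0.957. The ranges of later and earlier animals overlapped for these 5 probes. With 5 principal components only probe a of Fat1 was called, against 1.65% of all probes, and it is named here because of that result.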

How the data were processed

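The deposited series matrix holds 1 log10 ratio per probe and animal, with the animal in Cy3 and the pool in Cy5 per the labels. No label or header used here names the normalization or its software. Base 10 and the direction, animal over pool, were taken from the values themselves: the Y-linked genes Eif2s3y and Kdm5d had upper component means of 0.284 and 0.302, near log10 of 2 (0.301), as for a pool with equal shares of both sexes. Gene symbols came from the platform annotation. Of 23388 probes 13645 had 1 symbol, 48 several and 9695 none, and no probe with several was named. Probes with values on under 90% of arrays were left out (335), and 0.711% of values were missing.

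The array of animal 144 was left out, and 1 array whose title and source name differ was placed by its source name. All arrays form 1 group, so animals were compared along scores, along other probes and by animal number. Their number limits the precision. Tests were lmFit and eBayes of limma 3.58.1 in R 4.3.3 over all 23053 probes, called at a Benjamini-Hochberg adjusted p under 0.05. Shapes, correlations and figures used Python 3.11.15 with numpy 2.4.6, pandas 2.3.3, scipy 1.17.1, numba 0.67.0 and matplotlib 3.10.9. The limma fit, the call of discrete shape and the split of scores into 2 components were tested on simulated data. Genes named in the text are the 10 members of largest SD, the discrete members, up to 3 called members per score, the 5 of largest t by animal number, the 10 pairs of largest r, the 3 genes most like the members of largest SD and of discrete shape, and a short fixed list of known markers (Fat2, Cdh22, Cdh5, Cdh15, Pcdh8, Cdh1, Cdh2 and Celsr2). Other members are named to complete a class, a chromosome or a count, after their values were seen. Members and lists were chosen with earlier results of these data known. Alternatives covered animal 144, ranks, array scale, array spread, animal number, missing values, limits, weights and thresholds, and, added after the data were seen, 5 principal components, the kurtosis condition and counting the 7 alpha probes once.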

Additional observations from a re-analysis of the deposited data

Results flagged for a closer look

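The array of animal 144 lies outside the comparisons above, and 36 of the 65 members had values there outside the range of the other 248 arrays, 31 below and 5 above. Of all probes 35.9% lay outside, so the members' count has to be read against a whole array that stands apart. The 5 above were probe b of Cdh1 (1.37), Cdh16 (1.08), Celsr1 (0.708), Pcdh18 (0.649) and Pcdh12 (0.208), all as log10 ratios. Among those below were Cdh8 (-1.74), Pcdh10 (-1.65), Pcdh8 (-1.58), Cdh7 (-1.19) and Cdh15 (-1.15). The labels give this animal no condition of its own, and the cause was not tested.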

How the results depend on the processing

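The median SD of members stayed above that of all probes in each of 6 alternatives, by least with the alpha probes counted once (0.0600 against 0.0560). Members of discrete shape, 4 as reported, numbered 2 with animal 144 (0.928% of all probes), 10 with scaled arrays (2.24%), 2 with free weights (1.08%), 2 with a BIC gain over 20 (1.03%) and 14 without the kurtosis condition (6.67%), and 7 of the 10 and of the 14 were the alike alpha probes. With 5 principal components the called member and score pairs numbered 211 in place of 353, the members called by animal number 1 in place of 11 (1.65% of all probes), and the called member pairs 672 in place of 1087 (by single fits 34.4%, against 28.6% with any probe). The other alternatives kept these counts within 1.5 times. Signs reversed with the components for Cdh5 with pituitary (0.0364), Cdh2 probe b with immediate early genes (-0.000258) and Pcdhga1 by animal number (0.000725), all not called there. Cdh15 with skeletal muscle reversed with animal 144 (0.00591) and on ranks (9.22, a slope in ranks), as did Cdh1 probe b with pituitary on ranks (8.46) and with scaled arrays (0.0122). Those 2 relations were not called. Cdh1 probe b with cerebellum was -0.0494 with animal 144 (adjusted p = 0.00314), the only reversal that passed the test. Of the 58 single results run with the components 32 kept their side of the threshold and direction, 23 lost the call and 3 reversed; without the 12 arrays of largest SD all 58 kept both. The causes were not tested. No paired analysis was possible because all animals form 1 group and their numbers name animals. With 1 array per animal, depth has no measure here, and signal over background is not given in the values used.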
